A study of Mus musculus with 12 samples.

Results

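High mobility group (HMG) proteins are abundant non-histone proteins of chromatin, and 8 of their mRNAs were followed here through neuronal differentiation: Hmgb1, Hmgb2, Hmgb3, Hmga1, Hmgn1, Hmgn2, Hmgn3 and Hmgn5. A read counted for 1 of these genes when its poly(A) tail measurement had passed quality control, when it had been aligned to an mRNA and when its annotated gene was that gene. All 8 genes had reads, out of 14042 genes with a read in any library, and all 8 were among the 9309 genes with at least 30 reads in total that entered the tests of abundance.

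The cells were P19, a mouse embryonal carcinoma line of wild-type genotype that behaves as a stem cell and takes a neuronal fate when exposed to retinoic acid. They were collected before differentiation (D0) and 2, 4 and 6 days (D2, D4 and D6) after transfer to NDiff 227 medium with 500 nM retinoic acid, with 3 biological replicates a day. The RNA itself was read through nanopores (direct RNA sequencing), so that 1 read is 1 mRNA molecule and carries both its identity and the length of its tail. D0 cells were grown in serum-containing medium without retinoic acid, so the medium and the agent cannot be told apart, and P19 is a single cell line.

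The 3 HMG families bind chromatin in different ways. HMGB proteins carry a pair of HMG boxes, domains that sit in the minor groove and bend DNA, and HMGB1 also acts as an alarm signal outside the cell when it is released. HMGN proteins bind the nucleosome itself and compete with linker histone, and HMGA proteins use AT-hooks to hold AT-rich DNA and are typical of embryonic and transformed cells.

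Each library gave between 120326 (D2 replicate 1) and 613756 (D0 replicate 2) reads on nuclear-encoded mRNAs, and levels are given as CPM, the reads of a gene per 1000000 reads of its library after TMM scaling of the library sizes. Since 1 read is 1 molecule, CPM was compared between genes without a correction for length. Whether genes differ in the share of their molecules that gave a kept read was not tested. Each sequencing run held the libraries of 1 day only, so day and run cannot be told apart in any comparison below. The D0 libraries were grouped by their sample labels, although D2 stands in the names of their sequencing runs next to a word for undifferentiated cells. The embryonal carcinoma marker Pou5f1 had 1703 ± 148 CPM (SD, n = 3) in undifferentiated cells and 0.903 ± 1.56 CPM on the last day, and the neuronal marker Map2 had 8.14 ± 2.97 and 246 ± 19.2 CPM, which is the order the labels give. In a bulk sample a smaller share of cells with a transcript and less of it in each cell cannot be told apart.

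The reads of the members ended at 12 places on their mRNAs that each held at least 50 reads within 50 bases, all of them in 3′ untranslated regions. Hmgb1 used 3 such ends, Hmgn1 and Hmgn2 used 2 each, and the other 5 members used 1. The 30 bases before the ends of these 3 genes and of Hmgb2 are shown because the ends of Hmgb1 and Hmgn2 differ in tail length, as described further on, with those of Hmgn1 for comparison, and because the Hmgb2 end lies far from the annotated one, with the polyadenylation hexamer in capitals. The search took AATAAA and ATTAAA first and, where neither was present, 8 variants of them.
Hmgb1 proximal end: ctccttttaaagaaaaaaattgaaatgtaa
Hmgb1 main end: aatgcttctaAGTAAATACAatttttttta
Hmgb1 distal end: tAATAAActaataattacagaggttttaaa
Hmgb2 end: ttaaatttgtAATAAAataatgtatattaa
Hmgn1 proximal end: tcctatAATACAaagtatACTAAAtggcaa
Hmgn1 main end: tcgaccAATAAAatctgttgtgaaagagta
Hmgn2 proximal end: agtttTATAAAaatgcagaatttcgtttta
Hmgn2 main end: aagaatctttAATAAAgctggttacagtta

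These windows lie on mm10 (minus strand unless said otherwise) at chr5:149048643-149048672, chr5:149048231-149048260 and chr5:149047227-149047256 for Hmgb1, at chr8:57514460-57514489 on the plus strand for Hmgb2, at chr16:96122051-96122080 and chr16:96121588-96121617 for Hmgn1, and at chr4:133965441-133965470 and chr4:133964748-133964777 for Hmgn2. AATAAA was present in 8 of the 12 windows and in 7 of the 8 main ones, beside 35.5% of the last 30 bases of all 58797 coding transcripts. The background uses annotated ends of transcripts with or without reads, whereas the windows lie where reads ended, so the shares are not a like comparison. The exception among the main ends was Hmgb1, whose window held the overlapping variants AGTAAA and AATACA, and the Hmgb1 proximal window held none of the 10 hexamers. Where the transcript went on past an end, the next 20 bases held between 2 and 7 A. The Hmgb2 end, used by 97.9% of its 3549 reads, lay 1510 bases short of the end of the annotated transcript, and the main Hmgn1 end lay 970 bases short of its own.

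As a group, the 8 mRNAs were most abundant on D4. Their share of all reads was 0.323% ± 0.0149 (SD, n = 3) in D0 cells, then 0.468% ± 0.0126, 0.575% ± 0.0476 and 0.515% ± 0.0155 on the 3 later days. The 4 HMGN mRNAs summed to 1533 ± 116 CPM before differentiation and to 2380 ± 19.2, 3213 ± 396 and 2767 ± 218 CPM after it. For the 3 HMGB mRNAs the sums were 1446 ± 132, 1759 ± 66.7, 2296 ± 235 and 1860 ± 109 CPM in the same order of days. Hmga1 ran the other way, with 561.5 ± 36.6 CPM on the first day and 131 ± 35.2 CPM on the last.

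**Figure D1:**
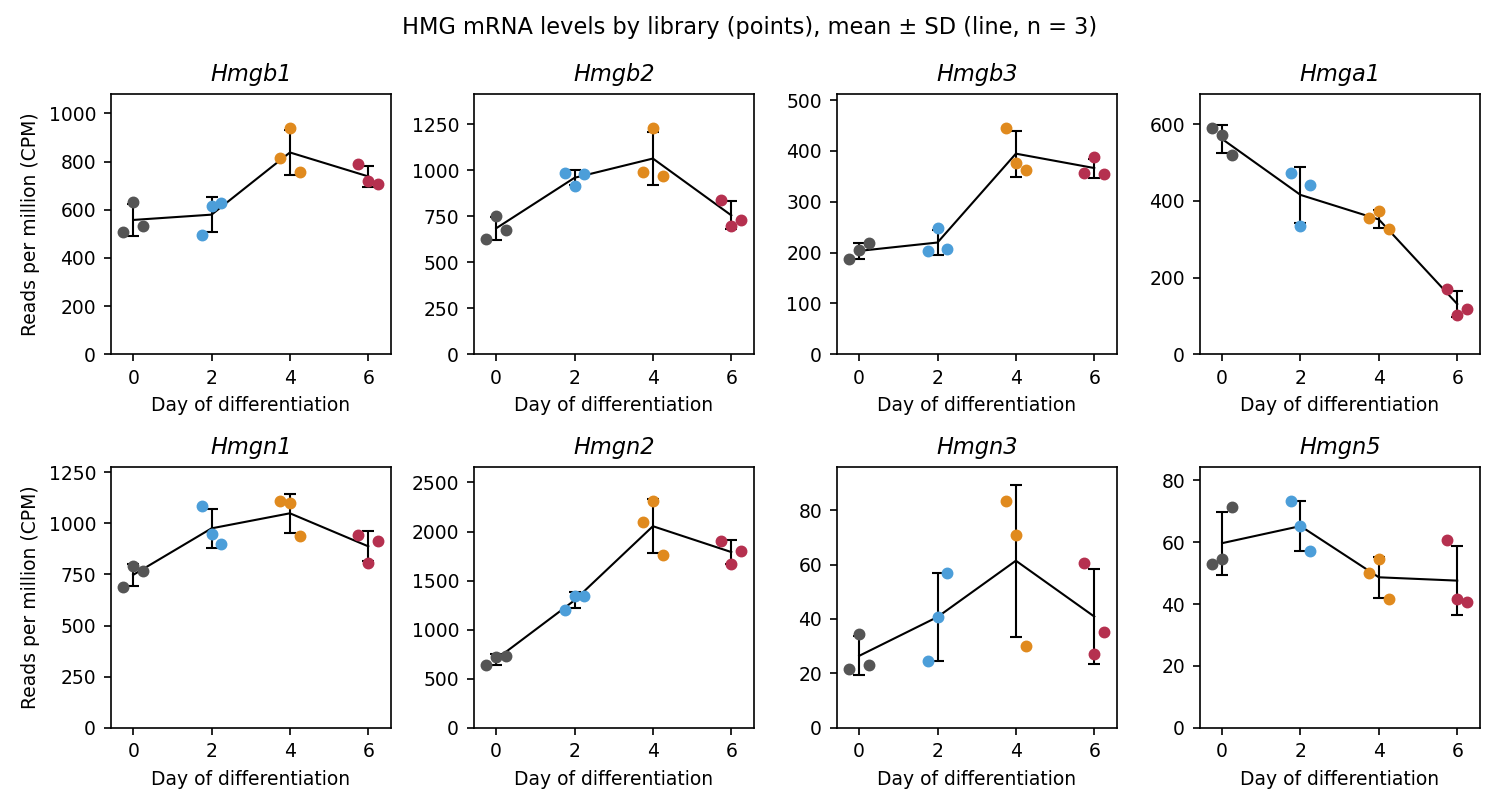
Level of each HMG mRNA in CPM on the y axis against the day of differentiation on the x axis. Points are libraries, the line joins the day means and the bars are the SD (n = 3). Hmgn2 climbs from 637 to 735 CPM at D0 to 1760 to 2311 CPM at D4, while Hmga1 ends between 104 and 171 CPM at D6.

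The order of the levels changed between D0 and D6. At D0 Hmgn1, Hmgn2 and Hmgb2 stood at the top with 748 ± 53.4, 699 ± 53.9 and 685 ± 61.2 CPM, and their libraries overlapped. Hmga1 and Hmgb1 (558 ± 65.6 CPM) followed and overlapped each other, and the highest Hmgb1 library (633 CPM) also reached the lowest Hmgb2 library (627 CPM). Hmgb3 (203 ± 15.4 CPM), Hmgn5 (59.7 ± 10.2 CPM) and Hmgn3 (26.5 ± 7.12 CPM) came last, each below all libraries of the one before it. At D6 Hmgn2 stood alone at the top and Hmga1 had dropped below Hmgb3, and neither overlapped its neighbours in the order. The place of Hmga1 rests on reads it shares with its copy Hmga1b, described with the HMGA genes, and the reads of both summed to 1262 to 1313 CPM on D0, above every member, and to 305 to 416 CPM on D6, which overlaps Hmgb3.

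Hmgn2, which encodes a nucleosome-binding protein that loosens compact chromatin, showed the largest increase among the members with all reads counted. Its level was 637, 726 and 735 CPM in the D0 libraries, 1205, 1345 and 1348 CPM on D2, 2092, 2311 and 1760 CPM on D4, and 1908, 1666 and 1800 CPM on D6. Every library of the later days was above every D0 library. The log2 fold change against D0 was 0.90 ± 0.11 (SE), 1.54 ± 0.10 and 1.34 ± 0.10 on the 3 later days (limma-voom with Benjamini-Hochberg adjustment over all genes tested, adjusted p = 8.64e-09, 8.26e-21 and 5.42e-18). On the linear scale these were 1.87-fold, 2.90-fold and 2.53-fold. A further increase of 0.64 ± 0.10 separated D4 from D2 (adjusted p = 1.67e-05), and the difference of D6 from D4 was not called (-0.20 ± 0.09, adjusted p = 0.157), although it was without D4 replicate 3 (-0.30, adjusted p = 0.0454).

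Hmgn1, the close relative of Hmgn2, rose at D2 and D4 and was not called at D6. Its libraries had 688, 789 and 766 CPM on D0, 1083, 946 and 897 CPM on D2, 1109, 1098 and 940 CPM on D4, and 943, 805 and 913 CPM on D6. Again no later library fell into the range of D0, but the distance to it was small at D6. The log2 fold change against D0 was 0.37 ± 0.11 at D2 (adjusted p = 0.0250) and 0.47 ± 0.10 at D4 (adjusted p = 0.000221), and at D6 it was 0.23 ± 0.10 and missed the threshold (adjusted p = 0.0746). The D2 call was lost without D0 replicate 1 (adjusted p = 0.0774) or D2 replicate 1 (adjusted p = 0.140) and in libraries thinned to the depth of the smallest (adjusted p = 0.0906). The D6 value was called without D6 replicate 2 (0.34, adjusted p = 0.0235), among genes with at least 120 reads (adjusted p = 0.0346), with a mapping quality of at least 10 (adjusted p = 0.0202) and with median-of-ratios scaling (adjusted p = 0.0405).
Within the HMGN family the balance moved from Hmgn1 to Hmgn2. Hmgn1 gave 48.8% ± 0.663 of the HMGN reads at D0 and 32.1% ± 0.596 at D6, and Hmgn2 gave 45.6% ± 0.417 and 64.8% ± 0.738.

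The other pair of HMGN mRNAs was rare. Hmgn3, found in nervous and endocrine tissue, had 9, 19 and 11 reads at D0 (21.6, 34.6 and 23.1 CPM) and 20, 30 and 13 reads at D4 (83.4, 71.0 and 29.9 CPM). Its D4 libraries overlapped those of D0. The D4 change of 0.97 ± 0.33 on the log2 scale was called (adjusted p = 0.0230) but not without D0 replicate 1, D0 replicate 3, D4 replicate 1 or D4 replicate 2, each of which gave an adjusted p between 0.0802 and 0.176, nor with a barcode confidence of at least 0.9 (0.91, adjusted p = 0.0548). At D6 Hmgn3 was 0.45 ± 0.35 from D0 (adjusted p = 0.339), and without D4 replicate 3 its D6 level was called lower than that of D4 (-1.03, adjusted p = 0.0281). Hmgn5, an X-linked member with a long acidic tail, had 9 to 34 reads a library and passed no test, with a D6 value of -0.37 ± 0.26 (95% interval -0.88 to 0.14, adjusted p = 0.268).

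Hmgb3, the X-linked HMGB gene of stem and progenitor cells, rose between D2 and D4. The levels were 188, 204 and 218 CPM on D0, 203.5, 249 and 207 CPM on D2, 446, 376 and 362 CPM on D4, and 356, 388 and 355 CPM on D6. The D2 libraries overlapped those of D0, and the D4 and D6 libraries lay above both. The change against D0 was 0.14 ± 0.17 on D2 (adjusted p = 0.680), 0.93 ± 0.13 on D4 (adjusted p = 1.23e-07) and 0.85 ± 0.14 on D6 (adjusted p = 5.02e-07) on the log2 scale, and D4 was 0.79 ± 0.17 above D2 (adjusted p = 0.00125).

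Hmgb1, the most studied member and a general DNA-bending protein, followed the same days with a smaller change. D0 libraries held 510, 633 and 531 CPM, D2 libraries 497, 616 and 627 CPM, D4 libraries 817, 941 and 756 CPM, and D6 libraries 790.3, 718 and 707 CPM. The libraries of D0 and D2 overlapped, while those of D4 and D6 lay above them all. The log2 fold change was 0.58 ± 0.11 at D4 (adjusted p = 3.38e-05) and 0.39 ± 0.11 at D6 (adjusted p = 0.00371) against D0. D4 was also above D2 (0.51 ± 0.13, adjusted p = 0.0101), a call that was lost without D2 replicate 1, D2 replicate 2, D4 replicate 1 or D4 replicate 2 (0.36 to 0.49, adjusted p between 0.0515 and 0.213), with a barcode confidence of at least 0.9 (0.44, adjusted p = 0.0666) and in thinned libraries (0.46, adjusted p = 0.162).
Reads of Hmgb1 can be shared with its pseudogenes, of which 89 annotated transcripts held at least 30% of their 21-base words in common with it. Of these, 2 had reads, 196 in all, and with the pseudogene reads added the D4 and D6 changes were 0.54 and 0.38.

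Hmgb2, which is tied to dividing cells, rose first and then returned. D0 libraries held 627, 749 and 678 CPM, D2 libraries 985, 913 and 980 CPM, D4 libraries 992, 1232 and 967 CPM, and D6 libraries 840.1, 697 and 729 CPM. All D2 and D4 libraries were above all D0 libraries, and the D6 libraries overlapped those of D0. Against D0 the log2 fold change was 0.48 ± 0.12 on D2 (adjusted p = 0.00282), 0.63 ± 0.10 on D4 (adjusted p = 2.36e-06) and 0.12 ± 0.11 on D6 (95% interval -0.10 to 0.34, adjusted p = 0.409). D6 was lower than D4 by -0.51 ± 0.11 (adjusted p = 0.000537), which was not called without D4 replicate 2 (-0.36, adjusted p = 0.0969) or in thinned libraries (-0.44, adjusted p = 0.0799).
With library totals in place of TMM scaling the D6 value of Hmgb2 was 0.37 and that of Hmgn1 0.48, and both were called, a scaling that moved the median of all genes at D6 by 0.26. Among the HMGB reads Hmgb2 gave 47.4% ± 0.129 at D0, 54.6% ± 3.58 at D2 and 40.6% ± 1.82 at D6.

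Hmga1, which holds AT-rich DNA open and is a mark of embryonic cells, was the only member called lower than in D0 cells. D0 libraries held 591, 572 and 521 CPM, D2 libraries 472, 334 and 441 CPM, D4 libraries 354, 374 and 327 CPM, and D6 libraries 171, 104 and 119 CPM. Every later library was below every D0 library, and every D6 library was below every D4 library. The log2 fold change against D0 was -0.48 ± 0.14 on D2 (adjusted p = 0.0164), -0.67 ± 0.13 on D4 (adjusted p = 2.72e-05) and -2.16 ± 0.16 on D6 (adjusted p = 4.43e-18), which makes D6 4.48-fold lower than D0. Most of this lay after D4, with a difference of -1.49 ± 0.17 between D6 and D4 (adjusted p = 7.98e-10). The D2 call was lost without D0 replicate 1, D0 replicate 2 or D2 replicate 2 (-0.24 to -0.41, adjusted p between 0.103 and 0.468). It was also lost with library totals (-0.31, adjusted p = 0.117), with limma-trend (-0.44, adjusted p = 0.0800) and in libraries thinned to the smallest (-0.31, adjusted p = 0.420).
The HMGA reads need care, because 93.3% of the Hmga1 reads had a mapping quality under 10 and Hmga1b, an intronless copy of Hmga1 on chromosome 11, holds 94.6% of its 21-base words in common with it. Hmga1b fell as well (-1.66 ± 0.13 at D6, adjusted p = 5.14e-17), and with the reads of both summed the changes were -0.27 at D2 (adjusted p = 0.0917), -0.67 at D4 and -1.85 at D6. Few of the 1560 Hmga1 reads passed a mapping quality limit of 10, so the values with that limit rest on little depth. With it, Hmga1 was at -1.32 from D0 at D2 (adjusted p = 0.397), at 0.04 at D4 (adjusted p = 0.971) and at -2.65 at D6 (adjusted p = 0.0275). Of these 3 changes against D0 only the one at D6 was called, and D6 against D4 was not (-2.69, adjusted p = 0.0860). Hmga2, the fetal HMGA gene, fell from 62.3 ± 5.44 to 22.2 ± 3.02 CPM on the last day (-1.43 ± 0.31, adjusted p = 0.000178). It had 174 reads in all, 5 to 31 a library, and 89.7% of them had a mapping quality under 10. All 3 HMGA genes with reads were lower at D6, but Hmga1 and Hmga1b were not measured apart from each other. Hmgb4 and Hmgn4, the other canonical members on the lists, had no reads.

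**Figure D2:**
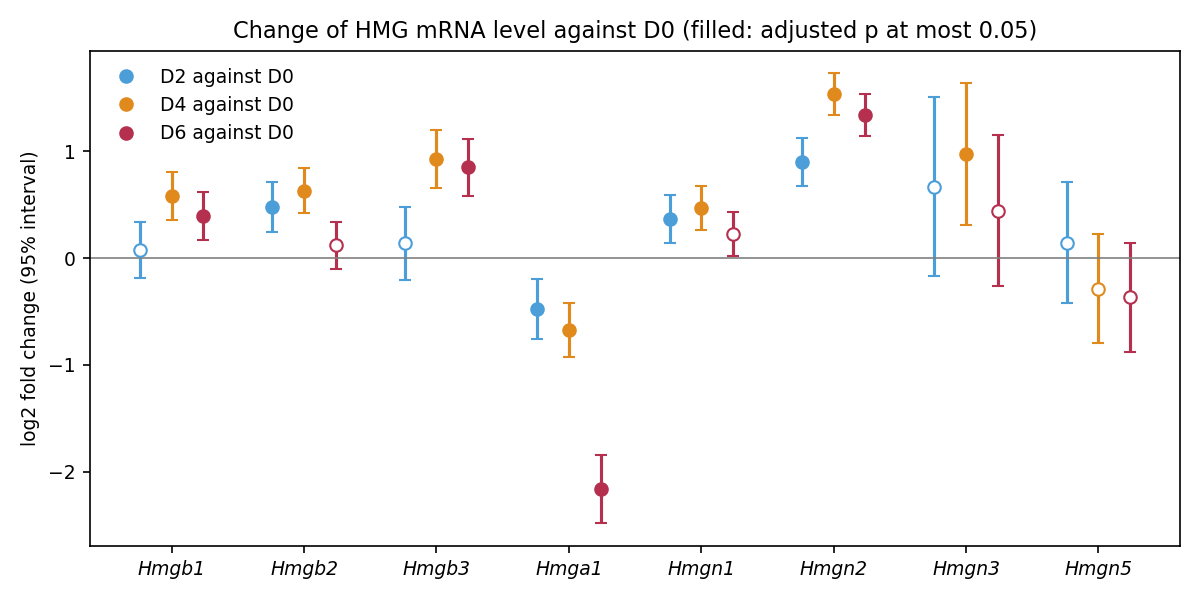
Log2 fold change of each HMG mRNA against D0 on the y axis at D2, D4 and D6, with 95% intervals from limma-voom on 3 libraries a day. Filled points had an adjusted p of at most 0.05, and Hmga1 at D6 (-2.16) stands apart from the members that rose, led by Hmgn2 at D4 (1.54).

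Counted over the 8 members against D0, D2 had 3 higher and 1 lower, beside 4.69% of all genes tested called higher and 6.11% called lower (10.8% in all). D4 had 6 higher and 1 lower, beside 12.9% and 12.5% (25.4% in all), and D6 had 3 higher and 1 lower, beside 19% and 18.8% (37.8% in all). From D2 to D4 3 members rose and 0 fell, beside 2.03% and 1.08% (3.12% in all), and from D4 to D6 0 rose and 2 fell, beside 4.04% and 4.39% (8.43% in all). The share of members called on D6 was thus near that of all genes, whereas on D4 Hmgn5 was the only one not called. The libraries of the 2 days did not overlap for 4 members on D2, 6 on D4 and 5 on D6 against D0, beside 28.3%, 37.8% and 46.7% of genes, for 4 on D4 against D2 (20.7%) and for 2 on D6 against D4 (24.7%). The median log2 fold change of the members against D0 was 0.26, 0.61 and 0.31 on D2, D4 and D6, beside -0.04, 0.01 and 0.00 for all genes tested. The later days share the D0 libraries, so these comparisons are not independent of each other.

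Most members had poly(A) tails longer than those of the typical gene. Averaged over the 12 libraries, the median tail was 121 nt for Hmgb2, 120 nt for Hmgn2, 118 nt for Hmgb3, 117 nt for Hmgb1, 115 nt for Hmgn5, 107 nt for Hmgn1 and 96.3 nt for Hmga1. Of the 3227 genes with enough reads for tail tests, 85.1% had a shorter tail than Hmgb2, 52.0% a shorter one than Hmgn1 and 19.03% a shorter one than Hmga1. Hmga1b, the intronless copy, was close to Hmga1 with 94.5 nt. Hmgn3, with as few as 3 reads in a library, was left out of the tail tests.

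For none of the 7 tested members did a change of tail length from D0 pass the test on any later day when all reads were used. With a mapping quality of at least 10, the median tail of Hmgb3 was called longer on D2 (0.61 on the log2 scale, adjusted p = 0.0421), beside 0.19 ± 0.09 (adjusted p = 0.442) with all reads. Hmgn2, with the most reads, had median tails of 112, 113 and 122 nt in the D0 libraries and of 119, 121 and 126 nt at D6, which overlap. The difference at D6 was 5.69% (95% interval -1.11% to 12.9%). Hmga1, whose level dropped 4.48-fold, had tails of 98.1, 101 and 98.3 nt at D0 and 109, 99.8 and 80.5 nt at D6, a difference of -3.63% (95% interval -15.3% to 9.67%). Over 21 tests the lowest adjusted p was 0.427 for the median tail, with 0 tests at an unadjusted p of at most 0.05, beside 3.19%, 3.44% and 3.44% of all genes called on the 3 later days.
The share of tails of 30 to 90 nt and of tails under 30 nt, the classes used in the study, gave no call either (lowest adjusted p 0.477 and 0.459, limma). The background was 3.22%, 3.13% and 3.19% for the first class and 0%, 0.465% and 1.08% for the second. In the under-30 nt class 3 of 21 tests had an unadjusted p of at most 0.05. For Hmgn1 the share was 1.04% ± 0.339 at D0, 3.08% ± 1.399 at D4 and 3.13% ± 0.809 at D6, and for Hmga1 it was 1.18% ± 0.755 at D0 and 6.48% ± 4.66 at D6.

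**Figure D3:**
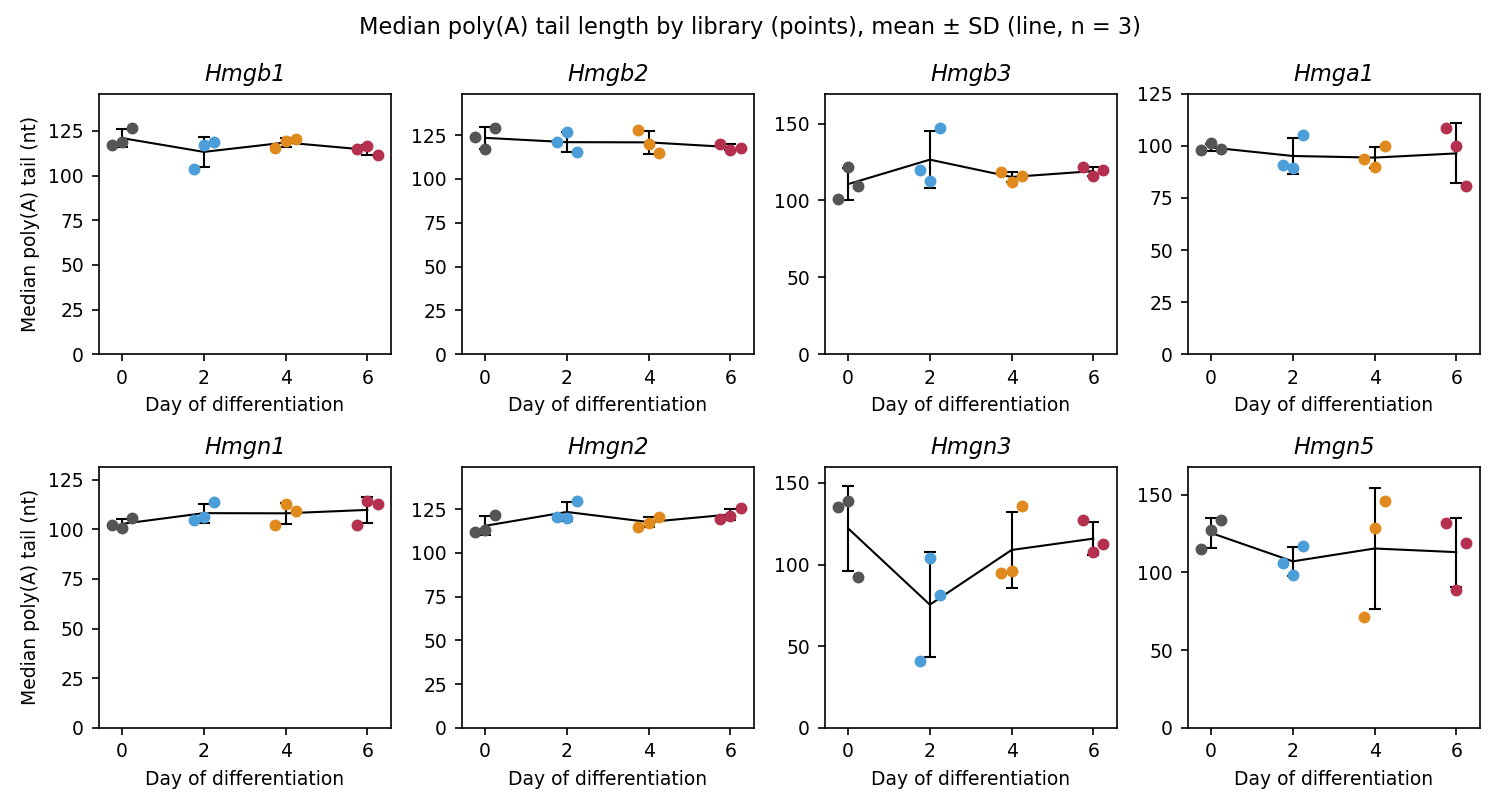
Median poly(A) tail length in nt on the y axis against the day of differentiation on the x axis, with libraries as points and the mean ± SD (n = 3) as the line and bars. The members with many reads stay between 80.5 and 147 nt in every library, and the wide scatter of Hmgn3 and Hmgn5 comes with few reads, as few as 3 and 9 in a library.

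The tail did differ between molecules of the same gene that ended at different places. This comparison was added after the data were seen. In Hmgb1 the distal end lay 1004 bases past the main end and held 266 of 2896 reads, while the proximal end lay 412 bases before it and held 178. Averaged over libraries, the median tail was 103 nt at the proximal, 116 nt at the main and 142 nt at the distal Hmgb1 end. The distal tails were longer than the main ones in 12 of 12 libraries, by 25.8 nt ± 22.3 (SD, exact sign-flip permutation test over libraries, two-sided, p = 0.000488, the smallest this test can give, adjusted p = 0.000977 over 4 tests). The proximal tails were shorter in 10 of 12 libraries, by -13.5 nt ± 16.6 (exact permutation p = 0.0220, adjusted p = 0.0293), and the 2 exceptions were D0 replicate 1 and D4 replicate 2.
Hmgn2 showed the same order. Its proximal end, 693 bases before the main end, had a mean median tail of 99.8 nt against 122 nt, and was shorter in 12 of 12 libraries, by -21.8 nt ± 8.74 (exact permutation p = 0.000488, adjusted p = 0.000977). For Hmgn1 the proximal end, with 2 to 10 reads a library, was shorter in 6 and longer in 6 libraries (6.44 nt ± 28.5, exact permutation p = 0.534). Since 12 of 12 libraries showed it, the Hmgb1 distal and the Hmgn2 difference was present within every day and thus within every sequencing run. The ends of Hmgb1 and Hmgn2 that differ rest on 4 to 52 reads a library.

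**Figure D4:**
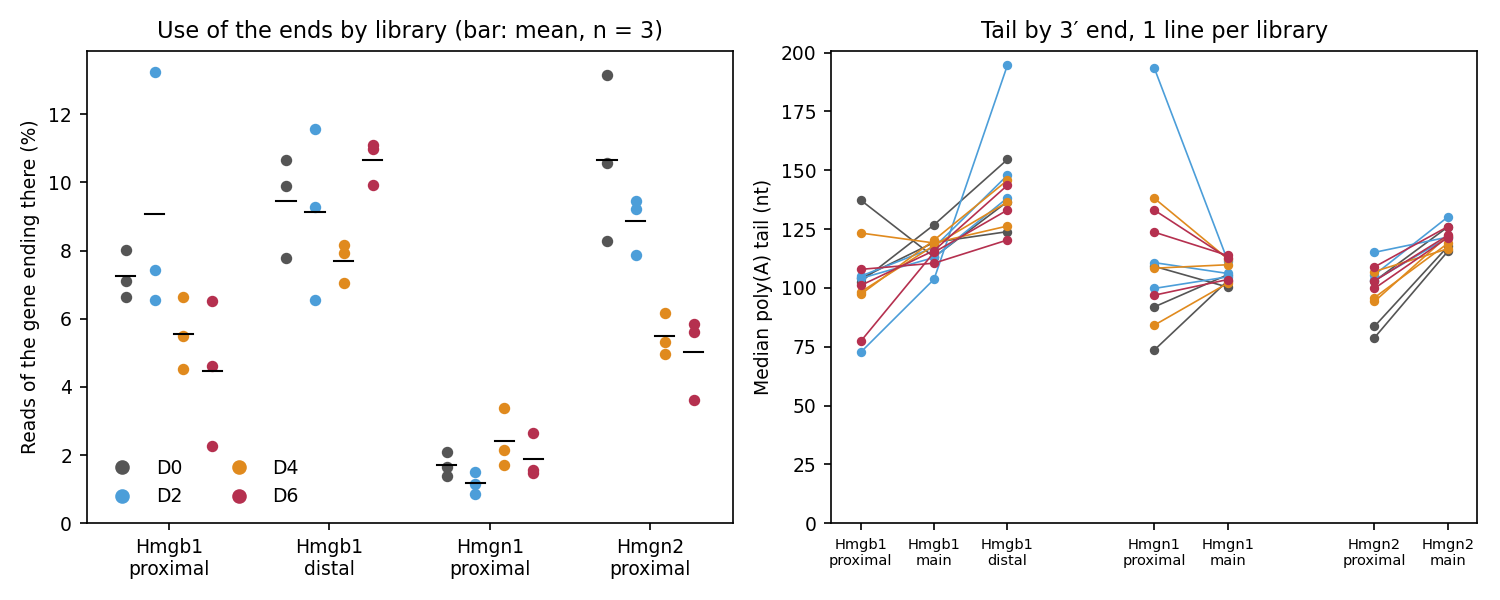
Left, percent of the reads of a gene that end at the named place, by library and coloured by day, with the mean of 3 as a bar. Right, median poly(A) tail in nt of the reads at each end, 1 line per library, where all 12 lines climb from the main to the distal end of Hmgb1 and from the proximal to the main end of Hmgn2.

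The share of Hmgn2 reads at the proximal end was lower in all D4 and D6 libraries than in all D0 libraries, without a call in the exact test used. The end took 10.6%, 8.29% and 13.1% of the Hmgn2 reads on D0, 9.46%, 7.88% and 9.23% on D2, 6.18%, 5.32% and 4.97% on D4, and 5.60%, 5.85% and 3.61% on D6. The D2 libraries overlapped those of D0. The difference from D0 was -5.18 percentage points at D4 and -5.65 at D6 (exact permutation p = 0.10 each, the smallest that 3 against 3 libraries allow, adjusted p = 0.343 over 12 tests). In absolute terms the proximal end had 74.7 ± 19.3 CPM at D0 and 89.8 ± 21.9 CPM at D6, while the main end had 621 ± 47.5 and 1695 ± 119 CPM.
For Hmgb1 the proximal end took 8.02%, 6.63% and 7.11% at D0 and 2.25%, 4.62% and 6.51% at D6, again without overlap (exact permutation p = 0.10, adjusted p = 0.343). Its distal end, at 9.45% ± 1.498 at D0 and 10.7% ± 0.660 at D6, overlapped (exact permutation p = 0.20). An exact test of 3 against 3 libraries cannot pass the threshold, and no model with a shared spread was fitted to these shares.

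**Figure D5:**
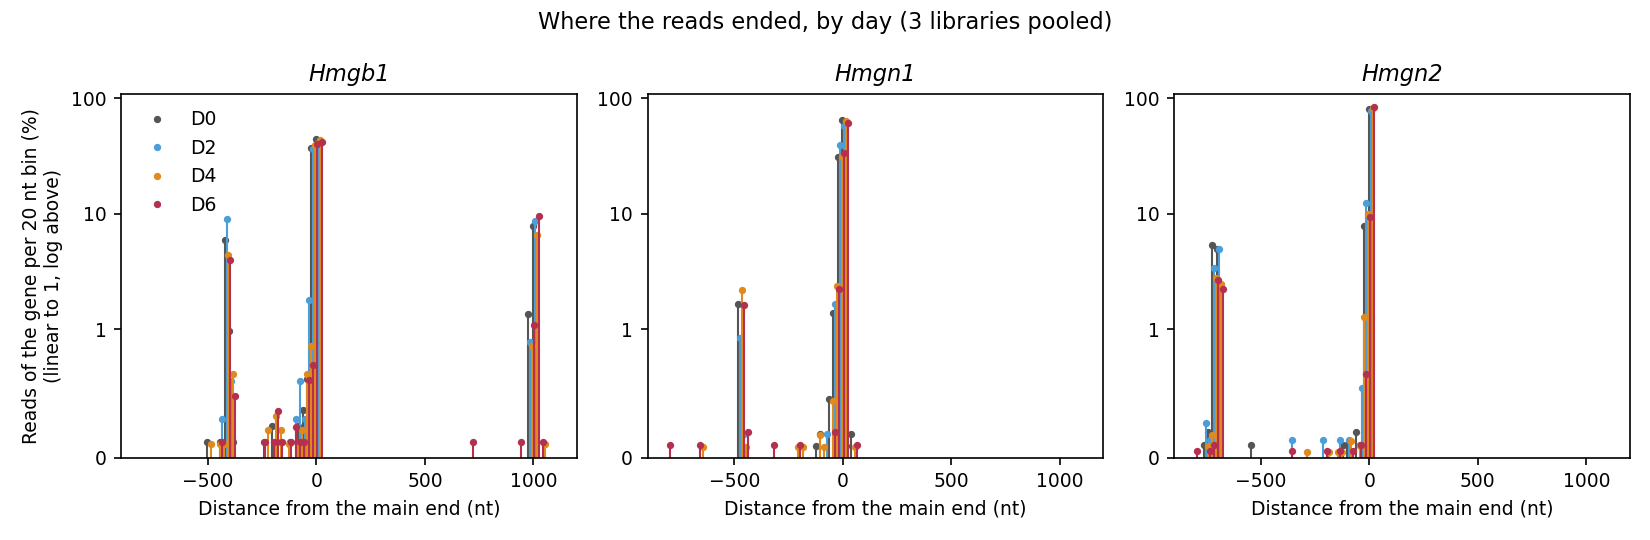
Percent of the reads of Hmgb1, Hmgn1 and Hmgn2 that end in each 20 nt bin, on a y axis that is linear up to 1 and logarithmic above, against the distance in nt from the main end of the gene, with negative values nearer the start of the mRNA. Colours are days with 3 libraries pooled, set side by side within a bin, and 12 Hmgb1 reads and 1 Hmgn1 read lie outside the axis.

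Reads of these genes could often be aligned to more than 1 transcript. Of the Hmgb1 reads 74.0% had a mapping quality under 10, of the Hmgb3 reads 65.3% and of the Hmgn2 reads 29.9%, while Hmgb2 and Hmgn1, each with 1 annotated mRNA in use, had 0.169% and 0.0533%. For this reason reads were summed per gene. With reads of a mapping quality of at least 10 alone, Hmgb3 was at 1.49 on D4 and 1.62 on D6, above Hmgn2 at 1.48 and 1.45. Hmgb1 was at 0.52 on D4 and 0.85 on D6 with these reads, both called, and its D4 against D2 difference was not called (0.43, adjusted p = 0.315). Among the 4 Hmgb3 transcripts, which share their annotated 3′ end, the leading one held 43.7% of the reads, and among the 8 Hmgn2 transcripts with reads the leading one held 96.9%.

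Genes known to act with HMG proteins were followed beside them. Only RNA with a poly(A) tail was sequenced, so any linker histone mRNA without a tail would not be seen here. Among the linker histones, which HMGN proteins displace, 1 of 7 genes had reads. That gene, H1f0, was lower at D2 (-0.71 ± 0.16, adjusted p = 0.00110), at 0.01 ± 0.12 from D0 at D4 and lower at D6 (-0.49 ± 0.13, adjusted p = 0.00217). Among 7 receptors and partners of extracellular HMGB1, 4 had enough reads to be tested. Cd24a, a surface protein that binds HMGB1, rose from 132 ± 10.3 to 680 ± 75.2 CPM at D6 (2.36 ± 0.14, adjusted p = 4.62e-22), and Cxcl12, a chemokine that forms a complex with HMGB1, fell from 73.4 ± 15.6 to 5.85 ± 4.25 CPM (-3.57 ± 0.54, adjusted p = 1.42e-07). Apex1, a DNA repair enzyme and partner of HMGB proteins, passed the test at D4 (0.44 ± 0.16, adjusted p = 0.0276) but not at D6 (0.27 ± 0.16, adjusted p = 0.186). Cxcr4, the receptor of that chemokine, was not called (0.99 ± 0.45, adjusted p = 0.0778). The receptors Ager and Tlr4 had 1 read each in all 12 libraries and Tlr2 had 17, too few for a test.

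Proliferation markers are given because Hmgb2 and Hmga1 are tied to dividing cells. Against D0, 3 of 23 such genes were higher and 0 lower on D2, 0 higher and 7 lower on D4, and 0 higher and 14 lower on D6, beside 4.69% and 6.11%, 12.9% and 12.5%, and 19% and 18.8% of all genes, with Mcm6 (-1.28 ± 0.15), Aurka (-1.27 ± 0.22) and Bub1 (-1.23 ± 0.28) in front. Their summed level was 5068 to 5325 CPM at D0, 5719 to 6310 CPM at D2, 4740 to 5291 CPM at D4 and 3415 to 3584 CPM at D6, with none of them at 0 reads. The sum was thus highest at D2 and lowest at D6, and its part in the Hmgb2 and Hmga1 values was not tested. Of 10 embryonal carcinoma markers 7 had reads in any library and 5 had enough to be tested. All 5 tested ones were lower at D6, Utf1 and Tdgf1 with 0 reads there, and all 13 neural markers were higher, Dcx (112 ± 24.4 CPM) and Snap25 (38.4 ± 5.56 CPM) from 0 reads at D0. Together the neural list had 680.4 to 703 CPM on D0, 448 to 607 CPM on D2, 1575 to 1732 CPM on D4 and 3103 to 3229 CPM on D6. On D2 3 of the 13 neural genes were higher and 2 lower than in D0 cells. Of 16 markers of other cell types 7 had reads and 2 could be tested, Acta2 (-3.43 ± 0.70) and Myl9 (-1.47 ± 0.53), both smooth muscle genes, and the summed level of the list was 49.2 to 60.9 CPM in D0 libraries and 8.30 to 21.4 CPM in D6 libraries. The glial, endothelial, blood, endodermal and mesodermal genes Aqp4, Sox10, Pecam1, Ptprc, Afp, Sox17, Gata4, Col3a1 and T had no reads.

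For 6 members with a mean of at least 20 reads a library, the genes with the most similar course were searched among 2796 genes by Pearson's r of log2 CPM over the 12 libraries. These values are descriptions, since the 12 libraries fall into 4 days and share their scaling. For Hmgn2, Id3, an inhibitor of bHLH factors, had r = 0.982 and a larger change, 3.64 ± 0.24 at D6 on the log2 scale. Hmgb3 was closest to H3f3b, a replication-independent histone H3.3 gene (r = 0.981), and Vim, the intermediate filament of neural progenitors (r = 0.971). Hmga1 was closest to the ribosomal protein gene Rps20 (r = 0.979) and to Eif4ebp1, a brake on translation (r = 0.978), both lower at D6 (-0.73 ± 0.06 and -3.46 ± 0.22). Hmgb1 was closest to Ctsb and Ndfip1 (r = 0.944 and 0.914), Hmgb2 to Ift74 and Mdk (r = 0.929 and 0.916), and Hmgn1 to Naxe and Psma4 (r = 0.909 and 0.908).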

How the data were processed

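Poly(A) RNA of 12 P19 libraries (D0, D2, D4 and D6, 3 each, groups from the sample labels) was sequenced on Nanopore R9 chips with the direct RNA kit. Base calling by the authors used Guppy, alignment to mm10 GENCODE transcripts used minimap2 2.20, and they measured tails in nt with Nanopolish and assigned barcodes with Deeplexicon. The deposited table has 1 line per aligned read with the tail length, the alignment start and end, the mapping quality (a score) and the barcode confidence (a fraction). A second deposited table holds only the authors' own DESeq2 fold changes and p-values and was not used. 69 malformed lines were dropped.

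From the table, reads with a passing tail (77.7% of lines assigned to a library) on mRNAs were kept, without 313187 mitochondrial and 38189 pseudogene reads, which left 4274320. They were tallied per gene, because reads could often be aligned to more than 1 transcript of a gene, and a prior of 0.5 reads was added. Abundance was tested with limma-voom (limma 3.58.1, R 4.3.3) over all 12 libraries with TMM factors, for genes with at least 30 reads. Since the reads were tallied here from a table of single reads, limma-voom took the place of a count model. Tails were tested with limma (median on the log2 scale and the 2 shares) with a prior variance trended on mean reads, for genes with a mean of at least 10 and no library under 5 reads. All tests were two-sided with Benjamini-Hochberg adjustment over all genes and a threshold of 0.05.
On simulated data with 9309 genes and D6 against D0, 98% of 2-fold and 22% of 1.4-fold changes were recovered, and on 3227 genes 99% of 20-point and 46% of 10-point changes of a tail share. The changed genes were drawn only from genes with many reads, more than Hmgn3 (169) and Hmgn5 (227) had. The spread between libraries was set alike for all genes, so these rates do not hold for genes with few reads. Intervals are 95% intervals of a difference between days, with a spread estimated over all 12 libraries and in part over all genes. They do not cover variation between sequencing runs, since each run held 1 day only. Read ends were placed on mm10 through GENCODE vM21 exons, whose coordinates matched for 30 of 30 member transcripts.

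The members and all lists were chosen with earlier results of these data known. Named genes were the 8 members, the 3 largest called changes at D6 of each other list, lists of up to 7 genes in full, and for each member the 2 most similar genes, of which 1 is not reported here. The replicate numbers were not used as pairs: over 18 pairs of libraries with the same number the correlations of their deviations from the day means ran from -0.138 to 0.172. Alternatives are given in the closing section.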

Additional observations from a re-analysis of the deposited data

How the results depend on the processing

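Of 720 member values of abundance under alternatives, 684 kept their side of the threshold (666 with the same sign and 18, called in neither fit, with the other), 26 lost and 9 gained a call, and 1 called value turned its sign, Hmga1 at D4 with a mapping quality of at least 10 (0.0356). Of 780 tail values 1 gained a call and 779 were called in neither fit, 61 of them with a changed sign. The largest change of sign among uncalled abundances was Hmga1 at D4 against D2, from -0.19 to 1.36 with that limit, which few Hmga1 reads passed. The number of members called moved at D2 against D0 from 4 to 2 in libraries thinned to the smallest, and at D6 against D4 from 2 to 1 there and with the mapping quality limit. That limit also called 1 median tail, Hmgb3 at D2 against D0, in place of 0. Without 1 replicate the members called were 2 to 4 (D2 against D0), 6 to 7 (D4), 4 to 5 (D6), 2 to 3 (D4 against D2) and 1 to 4 (D6 against D4), and 0 for all tail measures. The 2 at D2 came without D0 replicate 1, and the 1 and 4 at D6 against D4 without D4 replicate 2 and without D4 replicate 3.

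The replicate numbers did not pair the libraries (4 of 18 correlations over 0.1), and with a replicate block the members called stayed at 4, 7, 4, 3 and 2 for the abundance comparisons and at 0 for tails, with 1044, 2064, 3153, 345 and 662 genes called. Library totals alone raised the median gene by 0.17 at D2, 0.12 at D4 and 0.26 at D6 and the share of D6 calls that were higher from 50.2% to 69.0%; D2 went from 43.4% to 65.9%, D4 from 50.7% to 62.5%, D4 against D2 from 65.2% to 55.2% and D6 against D4 from 47.9% to 69.0%.

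All genes called moved over 1.5 times as follows. For abundance (1006, 2364, 3516, 290 and 785 genes) thinning gave 292, 654, 1178, 120 and 188, the mapping quality limit 569 (D2), 2179 (D6) and 416 (D6 against D4), limma-trend 454 (D4 against D2) and 444 (D6 against D4), no filter 1615 (D2), and at least 120 reads 2334 (D6). Leaving out D2 replicate 2 gave 655 (D2) and 165 (D4 against D2), and leaving out D4 replicate 2, D6 replicate 2 or D6 replicate 3 gave 433, 488 and 507 (D6 against D4). For tails, a constant prior variance gave 0 to 2 genes in place of 101 to 111 for the 30 to 90 nt share and the median and of 0, 15 and 35 for the share under 30 nt. That share gave 1, 2 and 18 with limits of 25, 3, 43 and 70 with limits of 35, 40 and 56 (D4 and D6) with weights by reads, 24 (D4) with a mean of at least 30 reads, and 1 to 21, 0 to 3 and 10 to 21 without 1 library. Weights by reads gave 188 genes for the median at D6, and leaving out D0 replicate 2 or 3 gave 57 to 65 at D2 for the 30 to 90 nt share and the median. The causes were not tested. The differences in 3′ end share from D0 moved by less than the SD between libraries, averaged over days, with windows of 20 or 100 bases, and the 2 read sets for Hmga1 and Hmgb1 and these windows were chosen after seeing the data. Adding named pseudogene reads added 0 reads.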

Other observations

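Other proteins with an HMG box gave no common direction. Of 18 tested genes of this kind (SOX factors left out), on D6 4 were higher and 5 lower than in D0 cells, with a median log2 fold change of -0.05, beside 19% and 18.8% of all genes called higher and lower. Tcf7, a Wnt pathway factor, went from 55.2 ± 4.57 to 5.48 ± 4.74 CPM (-3.23 ± 0.58), Bbx from 13.1 ± 4.17 to 2.99 ± 2.75 CPM (-2.15 ± 0.69), and Tox3, a neuronal factor, from 8.52 ± 5.64 to 67.7 ± 3.27 CPM (3.07 ± 0.45).

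Histone chaperones and HP1 proteins were called in both directions. On D6 5 of 23 genes were higher and 9 lower, beside 19% and 18.8% of all genes, with a median of -0.27, and 0 were higher at D2 or D4 (4.69% and 12.9% of all genes), where 4 and 5 were lower (6.11% and 12.5%). Npm1, the nucleolar chaperone nucleophosmin, went from 4478 ± 229 to 1151 ± 113 CPM (-1.98 ± 0.08), Ncl, nucleolin, from 1127 ± 167 to 412 ± 92.9 CPM (-1.45 ± 0.13), and Nap1l1, which carries histones H2A and H2B, from 1286 ± 42.0 to 502 ± 56.5 CPM (-1.37 ± 0.11). The summed level of this list was 12223 to 13162 CPM at D0 and 6968 to 7383 CPM at D6.

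Promoters (RefSeq, GRCm38.p6, 250 bases before to 50 after the start) were found for 7 of the 8 members. CCAAT on either strand was present in 6 of these 7, all but Hmga1, beside 41.1% of 27025 genes, GGGCGG in 6 of 7, all but Hmgn5, beside 38.2%, and TATAAA in 0 of 7 beside 15.7%.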
